A study of Homo sapiens with 16 samples.

Results

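A set of 10 genes around the FOXO transcription factors was followed in human mammary cells treated with a glucose analogue or with vehicle. They were the factors FOXO1 and FOXO3, the receptors INSR and IGF1R, the adaptor proteins IRS1 and IRS2, and the FOXO target genes BCL6, CCNG2, FBXO32 and CITED2. They were chosen by symbol, with earlier results of these data known. They are 10 of the 19775 genes measured, and are covered by 40 of the 41091 probe sets annotated with a single gene. Each gene was represented by its brightest probe set, the one with the highest mean over the 16 arrays, and the other 30 probe sets are described beside it. For FOXO3 a further 3 probe sets that the annotation assigns to both FOXO3 and FOXO3B were left out.

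RNA was measured on one-colour Affymetrix expression arrays in 4 groups of 4 arrays. MDA-MB-231, a breast cancer line with mesenchymal features, and MCF10A, an immortalized and non-tumorigenic mammary epithelial line, were each kept for 24 h with 2DG (2-deoxy-glucose) at 50 mM, or with water as vehicle. 2DG is taken up like glucose but cannot pass through glycolysis. Both media were DMEM/F12 with 17.5 mM glucose and antibiotics. MDA-MB-231 medium held 2 mM glutamine and 10% fetal bovine serum, whereas MCF10A medium held 1 mM glutamine, 5% horse serum, insulin, epidermal growth factor (hEGF), cholera toxin and hydrocortisone. Insulin was thus listed for the MCF10A medium alone, in both MCF10A groups, and line and medium cannot be told apart. Each type of cell is represented by a single line, and per the design text the replicates were independent biological replicates run in parallel.

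Insulin and insulin-like growth factors bind INSR and IGF1R, receptor tyrosine kinases that phosphorylate IRS1 and IRS2. The IRS proteins recruit PI3-kinase, which leads to activation of the kinase AKT. AKT phosphorylates FOXO proteins, which are then held in the cytoplasm by 14-3-3 proteins, and when the signal is low FOXO proteins enter the nucleus and activate genes that include INSR, IRS2, BCL6, CCNG2, FBXO32 and CITED2. The arrays measured RNA and neither phosphorylation nor location of the FOXO proteins.

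FOXO proteins bind DNA at the core letters AAACA, most strongly as GTAAACA, and CAAAACA is the form named for insulin response elements. RefSeq windows of 250 bases before the start site (GRCh38.p14) were available for 9 of the 10 genes, 15 windows in all, and were searched for these letters on both strands. Windows of 3 genes are shown, for the gene with the longer match, for the single window with the most matches and for the receptor, which had none. Capitals mark matches, which lie here as the reverse complements TGTTTTG and TGTTT.
IRS2, chr13:109786584-109786833, minus strand: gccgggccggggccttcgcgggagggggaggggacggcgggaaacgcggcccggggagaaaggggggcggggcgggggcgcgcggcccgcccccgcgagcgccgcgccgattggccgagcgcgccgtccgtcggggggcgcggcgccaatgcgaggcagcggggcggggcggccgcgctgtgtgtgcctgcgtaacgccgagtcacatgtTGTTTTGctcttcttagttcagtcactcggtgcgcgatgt
BCL6, chr3:187736502-187736751, minus strand: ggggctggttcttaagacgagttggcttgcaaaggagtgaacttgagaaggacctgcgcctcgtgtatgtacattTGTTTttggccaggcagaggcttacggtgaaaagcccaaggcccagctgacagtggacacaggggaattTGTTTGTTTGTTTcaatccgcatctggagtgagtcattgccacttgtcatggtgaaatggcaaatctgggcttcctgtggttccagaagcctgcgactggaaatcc
INSR, chr19:7294415-7294664, minus strand: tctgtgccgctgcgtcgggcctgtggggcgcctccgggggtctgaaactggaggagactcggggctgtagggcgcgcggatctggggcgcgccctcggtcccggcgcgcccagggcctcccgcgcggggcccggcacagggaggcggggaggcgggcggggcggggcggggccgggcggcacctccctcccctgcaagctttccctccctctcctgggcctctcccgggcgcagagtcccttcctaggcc
The IRS2 window held the only CAAAACA among the 15 windows, with its first base 40 bases before the start site, while 4.3% of all 35116 windows of the table held one. The BCL6 window shown held AAACA at 4 positions, 3 of them overlapping each other by a base. Another BCL6 window, not shown, held none of the motifs. AAACA, which is contained in both longer motifs, occurred in 6 of the 15 windows, against 40.4% of all windows. The windows with a match belonged to IRS1, IRS2, BCL6, FOXO1 and FOXO3, while further windows of BCL6 and FOXO3 held none. GTAAACA occurred in 0 of the 15 and in 2.98% of all windows. A match is a description of these letters and not a shown binding site, and the lack of one says only that the letters are not in this window.

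The 4 groups could be told apart by line on marker genes, with values given here as log2 RMA values, a brightness scale that is comparable between arrays for 1 probe set but not between probe sets. The mean of 5 basal epithelial markers lay at 6.03 to 6.44 with 2DG and 5.85 to 6.08 with vehicle in MDA-MB-231, and at 12.6 to 12.7 with 2DG and 12.4 to 12.5 with vehicle in MCF10A. Over 4 mesenchymal markers the mean was 13.3 to 13.4 with 2DG and 13.2 to 13.3 with vehicle in MDA-MB-231. In MCF10A it was 11.2 to 11.3 with 2DG and 11.1 to 11.2 with vehicle. Of these markers, ZEB1 averaged 7.61 with 2DG and 7.75 with vehicle in MCF10A. In MDA-MB-231 ZEB1 averaged 11.41 with 2DG and 11.29 with vehicle. VIM, AXL and MSN averaged 10.13 or more in every group, MCF10A included. Luminal markers (6 genes) averaged 8.07 to 8.16 with 2DG and 8.31 to 8.48 with vehicle in MDA-MB-231, and 8.68 to 8.79 with 2DG and 8.79 to 8.94 with vehicle in MCF10A. Leukocyte markers (3 genes) averaged at most 6.3 and adipocyte markers (3 genes) at most 4.96 in any array, with PTPRC at group means of 3.75 to 4.16 and ADIPOQ at 3.39 to 3.5. The leukocyte mean was 6.19 to 6.3 with 2DG and 6.03 to 6.17 with vehicle in MCF10A, without overlap, and its member CD14 averaged 8.72 with 2DG and 8.1 with vehicle there, against 5.66 with 2DG and 5.58 with vehicle in MDA-MB-231. Fibroblast markers (5 genes) averaged 6.23 to 6.34 with 2DG against 6.1 to 6.18 with vehicle in MDA-MB-231, and 7.35 to 7.45 against 6.54 to 6.69 in MCF10A, so they too moved with 2DG in MCF10A. There COL1A1 averaged 11.15 with 2DG and 9.04 with vehicle, while the fibroblast marker PDGFRA stayed at group means of 4.74 to 4.85, and the part of either list in the results was not tested. The difference between the 3' and 5' actin control probe sets, which follows RNA integrity, was 0.97 to 1.13 with 2DG in MDA-MB-231, against 1.09 in replicate B and 0.38 to 0.47 in the other 3 replicates with vehicle, and it was 0.5 to 0.65 with 2DG against 0.34 to 0.49 with vehicle in MCF10A. With this difference as a covariate all calls for the 10 genes stood, as they did without replicate B of MDA-MB-231 with vehicle.

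With 2DG, 8 of the 10 genes rose and 2 fell in MDA-MB-231, and all 10 rose in MCF10A (limma, with Benjamini-Hochberg adjustment over every gene and a threshold of 0.05). INSR and IRS1 were the 2 that went in opposite directions in the lines, and the rise of FBXO32 in MDA-MB-231 was seen on 1 of its probe sets alone. The response was wide in these cells, and the counts are to be read against it. Because the 10 genes were chosen with earlier results of these data known, neither the counts nor the medians test them as a set. In MDA-MB-231 50.9% of all genes were called, 25.5% higher and 25.4% lower, and in MCF10A 54.2% were called, 29.0% higher and 25.2% lower. The median log2 change of the 10 genes was 0.54 in MDA-MB-231 and 1.8 in MCF10A, whereas the medians over all 19775 genes were 0.0275 in MDA-MB-231 and 0.0225 in MCF10A. The 2DG and vehicle arrays did not overlap for any of the 10 genes in either line, which held for 46.9% of all genes in MDA-MB-231 and 51.6% in MCF10A. These are bulk measurements, in which a change in every cell and a change in some of the cells, or fewer cells and less RNA per cell, cannot be told apart.

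**Figure D1:**
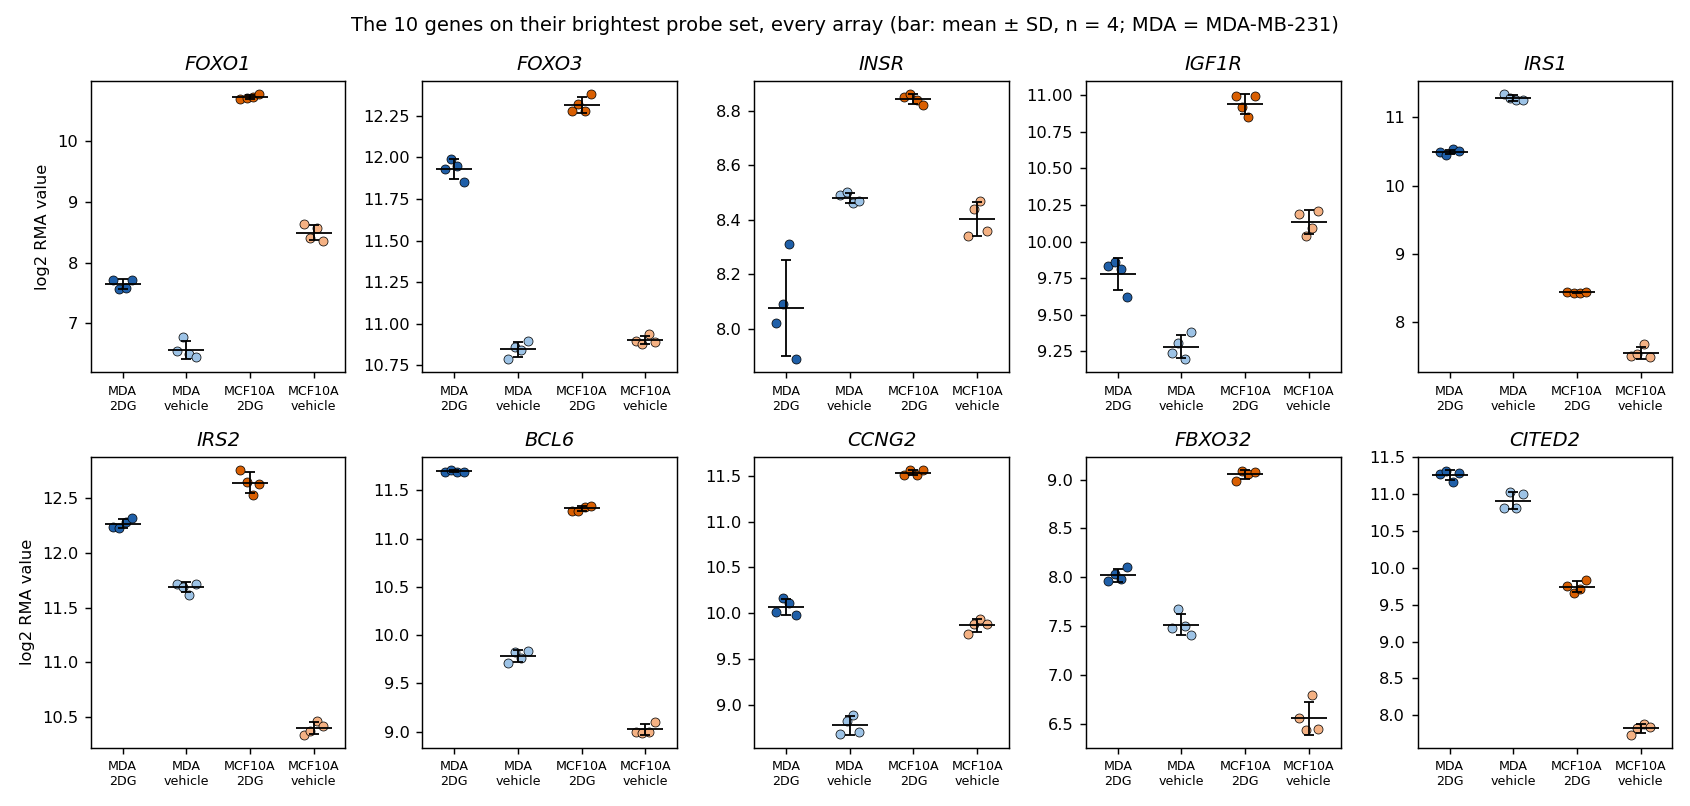
Log2 RMA value (vertical axis, own scale per panel) of each of the 10 genes on its brightest probe set in the 16 arrays; points are arrays, bars the mean ± SD of 4 arrays. The 2DG points lie above the vehicle points in every panel for MCF10A and in 8 panels for MDA-MB-231, and below them for INSR and IRS1 in MDA-MB-231.

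FOXO1, a forkhead factor that carries insulin's effect to glucose-producing genes in liver, rose in both lines. In MDA-MB-231 its probe set 202724_s_at read 7.72, 7.57, 7.58 and 7.72 with 2DG, against 6.55, 6.78, 6.49 and 6.44 with vehicle. The MCF10A arrays read 10.7, 10.71, 10.73 and 10.77 with 2DG, against 8.64, 8.41, 8.56 and 8.36 with vehicle. Every MCF10A array was thus above every MDA-MB-231 array, and the groups ran in the order MCF10A with 2DG, MCF10A with vehicle, MDA-MB-231 with 2DG and MDA-MB-231 with vehicle, without overlap. Its log2 change was 1.08 ± 0.0731 (SE) in MDA-MB-231, a 2.12-fold rise with adjusted p = 1.66e-09, and 2.24 ± 0.0731 in MCF10A, a 4.71-fold rise with adjusted p = 1.23e-13. The second probe set, 202723_s_at, changed by 0.87 in MDA-MB-231 and 1.96 in MCF10A (p-values of such other probe sets were adjusted over the 41091 probe sets). The remaining one, 228484_s_at, stayed between 4.75 and 4.89 in all group means and was called in neither line.

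FOXO3, a close relative of FOXO1 with an overlapping set of targets, rose in both lines. The MDA-MB-231 arrays read 11.93, 11.99, 11.95 and 11.85 with 2DG, against 10.79, 10.86, 10.84 and 10.9 with vehicle. In MCF10A it read 12.28, 12.32, 12.28 and 12.38 with 2DG, against 10.9, 10.88, 10.94 and 10.89 with vehicle. On this brightest probe set the vehicle arrays of the lines overlapped, while the 2DG arrays did not. On the log2 scale the change was 1.08 ± 0.0388 in MDA-MB-231 (2.12-fold, adjusted p = 6.93e-13) and 1.41 ± 0.0388 in MCF10A (2.66-fold, adjusted p = 1.42e-14). The other probe sets of FOXO3 changed by 0.56 to 1.73 in MDA-MB-231 and by 0.68 to 1.46 in MCF10A, all upward. The order of the lines depended on the probe set. On 204131_s_at MDA-MB-231 was higher with 2DG (10.27 against 10.11) and lower with vehicle (8.54 against 8.83), without overlap. The 2DG arrays of the lines overlapped on 231548_at.

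INSR, the insulin receptor, fell in MDA-MB-231 and rose in MCF10A. In MDA-MB-231 it read 8.02, 8.09, 8.31 and 7.89 with 2DG, against 8.49, 8.5, 8.46 and 8.47 with vehicle. The MCF10A arrays read 8.85, 8.86, 8.84 and 8.82 with 2DG, against 8.34, 8.44, 8.47 and 8.36 with vehicle. On this brightest probe set the vehicle arrays of the lines overlapped and lay between the 2DG groups, MCF10A above and MDA-MB-231 below them. The log2 change was -0.4 ± 0.0645 in MDA-MB-231, 1.32-fold lower with 2DG (adjusted p = 4.77e-05), and 0.44 ± 0.0645 in MCF10A, 1.36-fold higher (adjusted p = 1.63e-05). Each of the other INSR probe sets had the same signs, -0.75 to -0.1 in MDA-MB-231 and 0.28 to 0.47 in MCF10A. Not all of these changes were called. In MDA-MB-231 226212_s_at (-0.1, adjusted p = 0.325) and 207851_s_at (-0.18, adjusted p = 0.223) were not. In MCF10A 207851_s_at was not (0.28, adjusted p = 0.0539).

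IGF1R, the receptor for insulin-like growth factors, rose in both lines on its brightest probe set. It averaged 9.78 ± 0.109 (SD, n = 4) with 2DG and 9.28 ± 0.0793 with vehicle in MDA-MB-231, and 10.94 ± 0.067 with 2DG and 10.13 ± 0.081 with vehicle in MCF10A. The 4 groups did not overlap. Its log2 change was 0.5 ± 0.0595 (SE) in MDA-MB-231 (1.41-fold, adjusted p = 1.84e-06) and 0.8 ± 0.0595 in MCF10A (1.75-fold, adjusted p = 3.97e-09). The probe sets of IGF1R disagreed on which line changed more. Probe set 203627_at changed by 0.03 in MDA-MB-231 (adjusted p = 0.627) and 1.17 in MCF10A, and 203628_at by 1.04 in MDA-MB-231 and 0.54 in MCF10A.

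IRS1, an adaptor that links both receptors to PI3-kinase, also fell in MDA-MB-231 and rose in MCF10A. The MDA-MB-231 arrays read 10.49, 10.45, 10.53 and 10.51 with 2DG, against 11.34, 11.28, 11.26 and 11.26 with vehicle. In MCF10A it read 8.44, 8.43, 8.42 and 8.44 with 2DG, against 7.5, 7.53, 7.67 and 7.48 with vehicle. The lines stayed apart, every MDA-MB-231 array being above every MCF10A array, but with 2DG they lay closer to each other. On the log2 scale the change was -0.79 ± 0.0407 in MDA-MB-231, 1.73-fold lower (adjusted p = 5.53e-11), and 0.89 ± 0.0407 in MCF10A, 1.85-fold higher (adjusted p = 8.57e-12). The gap between the lines, MDA-MB-231 minus MCF10A, was 2.06 with 2DG and 3.74 with vehicle. The other IRS1 probe sets had the same signs, with changes of -1.13 and -0.77 in MDA-MB-231 and 0.1 and 1.61 in MCF10A. The change of 0.1, on 238933_at, was not called (adjusted p = 0.651).

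IRS2, the adaptor that is itself a FOXO target in liver, rose in both lines. In MDA-MB-231 it read 12.24, 12.23, 12.28 and 12.32 with 2DG, against 11.72, 11.69, 11.62 and 11.72 with vehicle. The MCF10A arrays read 12.76, 12.65, 12.53 and 12.63 with 2DG, against 10.34, 10.37, 10.46 and 10.42 with vehicle. On this brightest probe set MDA-MB-231 was the higher line with vehicle and the lower line with 2DG, and no groups overlapped. The log2 change was 0.58 ± 0.047 in MDA-MB-231 (1.49-fold, adjusted p = 1.59e-08) and 2.24 ± 0.047 in MCF10A (4.74-fold, adjusted p = 5.7e-16). The second IRS2 probe set changed by 0.72 in MDA-MB-231 and 2.3 in MCF10A. There the 2DG groups of the lines overlapped, with means of 10.64 in MDA-MB-231 and 10.68 in MCF10A. Both IRS2 probe sets and all FOXO1 probe sets are of the kind that the array maker marks as matching several transcripts.

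BCL6, a transcriptional repressor best known from germinal centre B cells, was the gene of the 10 with the largest rise in MDA-MB-231 on the brightest probe sets. The MDA-MB-231 arrays read 11.69, 11.71, 11.69 and 11.69 with 2DG, against 9.71, 9.83, 9.76 and 9.84 with vehicle. In MCF10A it read 11.29, 11.29, 11.33 and 11.34 with 2DG, against 9, 8.99, 9 and 9.1 with vehicle. Both 2DG groups thus lay above both vehicle groups, and MDA-MB-231 was the higher line in each condition on this brightest probe set. Its log2 change was 1.91 ± 0.0372 in MDA-MB-231 (3.76-fold, adjusted p = 1.27e-15) and 2.29 ± 0.0372 in MCF10A (4.89-fold, adjusted p = 2.94e-17). The other BCL6 probe sets changed by 0.91 and 2.06 in MDA-MB-231 and by 1.32 and 2 in MCF10A. On 228758_at the lines overlapped in each condition, with 2DG means of 7.44 in MDA-MB-231 and 7.67 in MCF10A.

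CCNG2 encodes cyclin G2, an atypical cyclin linked to cell cycle arrest, and it rose in both lines. It averaged 10.07 ± 0.0881 (SD, n = 4) with 2DG and 8.77 ± 0.0998 with vehicle in MDA-MB-231, and 11.54 ± 0.0289 with 2DG and 9.87 ± 0.0676 with vehicle in MCF10A. The 4 groups did not overlap on this brightest probe set, and MDA-MB-231 with 2DG lay just above MCF10A with vehicle. On the log2 scale the change was 1.29 ± 0.0543 (SE) in MDA-MB-231 (2.45-fold, adjusted p = 4.47e-12) and 1.67 ± 0.0543 in MCF10A (3.18-fold, adjusted p = 1.14e-13). The other CCNG2 probe sets ranged from 0.01 to 1.29 in MDA-MB-231 and from -0.07 to 1.55 in MCF10A.

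FBXO32 encodes atrogin-1, the substrate-binding part of a ubiquitin ligase known for its role in muscle wasting. In MDA-MB-231 it read 7.96, 8.03, 7.98 and 8.11 with 2DG, against 7.48, 7.67, 7.5 and 7.41 with vehicle. The MCF10A arrays read 8.99, 9.09, 9.06 and 9.08 with 2DG, against 6.56, 6.43, 6.79 and 6.44 with vehicle. On this probe set MCF10A was the lower line with vehicle and the higher line with 2DG, as for IRS2 on its brightest probe set. On 225328_at MCF10A was the higher line in both conditions, with means of 6.95 in MDA-MB-231 and 9.63 in MCF10A with 2DG, and 6.9 in MDA-MB-231 and 7.14 in MCF10A with vehicle. The log2 change was 0.51 ± 0.0726 in MDA-MB-231 (1.42-fold, adjusted p = 1.5e-05) and 2.5 ± 0.0726 in MCF10A (5.66-fold, adjusted p = 2.78e-14). In MDA-MB-231 the rise rested on the brightest probe set, 225803_at. The probe set 225328_at changed by 0.05 there (adjusted p = 0.531) and by 2.49 in MCF10A, and 241763_s_at changed by -0.75 in MDA-MB-231 (adjusted p = 3.88e-06). The mean of all FBXO32 probe sets changed by -0.01 in MDA-MB-231 (adjusted p = 0.927).

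CITED2, which binds the coactivators CBP and p300 and limits their use by HIF-1, rose in both lines. The MDA-MB-231 arrays read 11.27, 11.32, 11.16 and 11.29 with 2DG, against 10.81, 11.03, 10.81 and 11.01 with vehicle. In MCF10A it read 9.76, 9.66, 9.72 and 9.84 with 2DG, against 7.74, 7.83, 7.88 and 7.84 with vehicle. Every MDA-MB-231 array was above every MCF10A array on this brightest probe set. Its log2 change was 0.35 ± 0.0593 in MDA-MB-231 (1.27-fold, adjusted p = 9.76e-05) and 1.92 ± 0.0593 in MCF10A (3.79-fold, adjusted p = 5.81e-14). With the actin difference as a covariate the MDA-MB-231 change was 0.23 (adjusted p = 0.0193). The other CITED2 probe sets changed by 0.13 and 0.61 in MDA-MB-231 and by 0.1 and 1.49 in MCF10A.

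**Figure D2:**
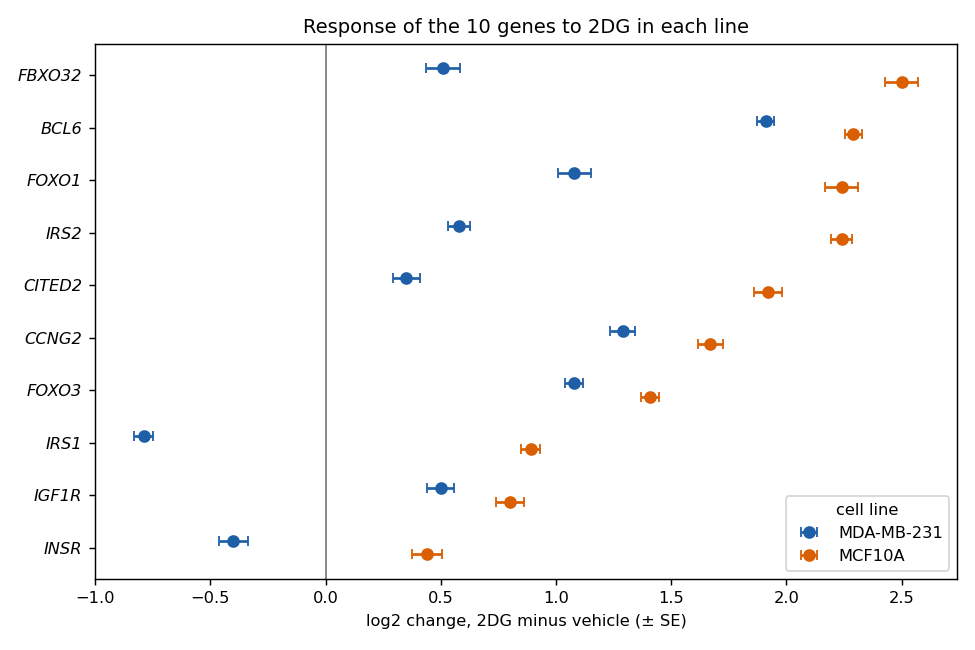
Log2 change, 2DG minus vehicle, of the brightest probe set of each gene (horizontal axis; bars are the SE of the fit), with MDA-MB-231 in blue and MCF10A in orange. For each gene the MDA-MB-231 point lies left of the MCF10A point, and for INSR and IRS1 it lies below 0.

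The response was smaller or more negative in MDA-MB-231 than in MCF10A for all 10 genes on their brightest probe sets. The difference of the responses, MDA-MB-231 minus MCF10A, passed the test of the interaction for each of them, with a median of -1 on the log2 scale against 0.005 over all genes. Of all genes, 45.8% were called in this comparison, 22.3% higher and 23.6% lower in MDA-MB-231. The difference was -2 ± 0.103 (SE) for FBXO32 (adjusted p = 1.28e-10), -1.68 ± 0.0576 for IRS1 (adjusted p = 1.29e-12), -1.66 ± 0.0665 for IRS2 (adjusted p = 6.42e-12) and -1.58 ± 0.0838 for CITED2 (adjusted p = 1.85e-10). It was -1.15 ± 0.103 for FOXO1 and -0.84 ± 0.0912 for INSR, with adjusted p of 9.48e-08 and 8.4e-07. For the remaining 4 genes it was -0.38 for BCL6 and CCNG2, -0.33 for FOXO3 and -0.31 for IGF1R, with adjusted p between 1.31e-05 and 0.00625.

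Both adaptors and the receptor INSR differed between the lines in the same sense on each of their probe sets, but for FOXO3 and IGF1R the sense depended on the probe set. Over the 30 other probe sets, 22 had the same sign of the difference as the brightest one and 8 the opposite, 2 of which were called. These were 204131_s_at of FOXO3, with a difference of 0.45 (adjusted p = 0.000323), and 203628_at of IGF1R, with 0.5 (adjusted p = 0.000988). Averaged over all probe sets of the gene, the difference was -0.05 for FOXO3 (adjusted p = 0.383) and -0.13 for IGF1R (adjusted p = 0.0741). For the 2DG change itself, 26 of the 30 had the sign of the brightest probe set in MDA-MB-231 and 27 in MCF10A.

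**Figure D3:**
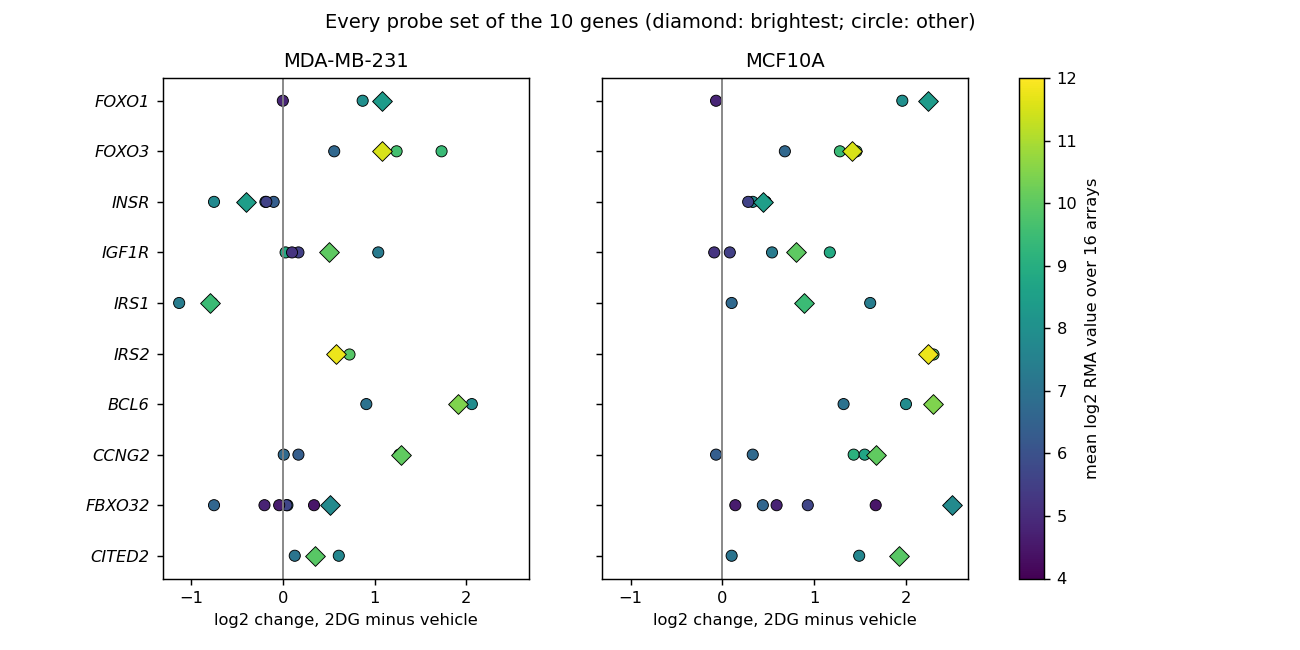
Log2 change, 2DG minus vehicle (horizontal axis), of all 40 probe sets of the 10 genes in MDA-MB-231 (left) and MCF10A (right); diamonds are the brightest probe sets, circles the others, some hidden behind a diamond, and the colour is the mean log2 RMA value over 16 arrays. All INSR and IRS1 probe sets lie left of 0 in MDA-MB-231 and right of 0 in MCF10A, and the FBXO32 probe sets lie on both sides of 0 in MDA-MB-231.

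On vehicle, the lines differed for 8 of the 10 genes, 5 being higher and 3 lower in MDA-MB-231. Of all genes 56.0% were called in this comparison, 29.2% higher and 26.8% lower, and the median over the 10 genes was 0.42 against 0 over all genes. The adaptor IRS1 was 13.4-fold higher in MDA-MB-231 (log2 difference 3.74 ± 0.0407, adjusted p = 2.62e-19) and CITED2 was 8.53-fold higher (3.09 ± 0.0593, adjusted p = 1.42e-16). IRS2, FBXO32 and BCL6 were 2.45-fold, 1.95-fold and 1.7-fold higher. FOXO1 was 3.8-fold lower (-1.93 ± 0.0731, adjusted p = 6.92e-13), CCNG2 2.13-fold lower and IGF1R 1.8-fold lower in MDA-MB-231. FOXO3 and INSR did not pass the test, with differences of -0.06 ± 0.0388 (adjusted p = 0.257) and 0.08 ± 0.0645 (adjusted p = 0.344). The other probe sets did not all have these signs. For INSR 226216_at gave 0.34 (adjusted p = 0.00025) and 226450_at -0.12 (adjusted p = 0.186), and for FOXO3 204131_s_at gave -0.29 (adjusted p = 0.000511). Of the 30 other probe sets 8 had the opposite sign to the brightest one, and 2 of these were called, 225328_at of FBXO32 (-0.24, adjusted p = 0.0017) and 227287_at of CITED2 (-0.09, adjusted p = 0.0429).

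Across the 16 arrays the 10 genes fell into different patterns, given here as Pearson correlations that describe 4 groups on shared arrays. FOXO1 and IGF1R ran closely together (r = 0.99), and each had r = 0.95 with CCNG2. IRS2 had r = 0.95 with FBXO32 and 0.91 with BCL6, and IRS1 had r = 0.91 with CITED2 but -0.72 with FOXO1 and -0.75 with IGF1R. Among the 8510 genes with an SD of at least 0.3, the patterns most like FOXO1 were those of OFD1 (r = 0.999), AHNAK2 (0.998) and PRKCZ (0.996). The nearest to FOXO3 were SH3BP5 (0.995), NTN4 (0.994) and GOLGB1 (0.994), and the nearest to IRS2 were KLHDC2 (0.996), ACYP2 (0.993) and ATXN1 (0.993).

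Further FOXO targets, from a list of 30 genes of which 29 were measured, were then counted. Like the lists that follow, it was chosen with earlier results of these data known, so the counts do not test it as a set. In MDA-MB-231 16 rose and 6 fell, with a median log2 change of 0.12. In MCF10A 23 rose and 0 fell, also at an unadjusted p under 0.05, with a median of 0.69. The difference of the responses was called lower in MDA-MB-231 for 20 of the 29 and higher for 4, with a median of -0.71. Over all genes 25.5% rose and 25.4% fell in MDA-MB-231, and 29.0% rose and 25.2% fell in MCF10A. The difference was called lower for 23.6% of all genes and higher for 22.3%. TXNIP, an inhibitor of thioredoxin and of glucose uptake, had the largest rise in MDA-MB-231 (1.88 ± 0.0329, adjusted p = 5.31e-16, with its other probe sets at 2.83 and 2.95), and IGFBP1, a secreted binding protein for insulin-like growth factors, the largest fall (-2.07 ± 0.112, adjusted p = 1.07e-10), although its other probe set changed by 0.04. PDK4, the kinase that turns off pyruvate dehydrogenase, had the largest rise in MCF10A (5.37 ± 0.0528, adjusted p = 2.97e-19, with its other probe sets at 2.4 and 3.18).

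The genes that carry the insulin signal to AKT (20 of 25 measured) split between the directions. In MDA-MB-231 9 rose and 4 fell (median 0.07), and in MCF10A 11 rose and 5 fell (median 0.18), while the difference was called higher in MDA-MB-231 for 4 and lower for 10. Of all genes, 25.5% rose and 25.4% fell in MDA-MB-231, and 29.0% and 25.2% in MCF10A. For the difference 22.3% were higher and 23.6% lower. RICTOR, a subunit of the kinase complex mTORC2 that phosphorylates AKT, had the largest rise in MDA-MB-231 (1.01 ± 0.0343, adjusted p = 4.1e-13), and MAPKAP1, another subunit, the largest fall (-0.71 ± 0.0489, adjusted p = 2.22e-09), with its other probe sets between -1.87 and 1.21. In MCF10A the adaptor GAB1 had the largest rise (1.39 ± 0.0504, adjusted p = 4.16e-13, with its other probe sets between -0.29 and 0.97) and the kinase AKT1 the largest fall (-0.68 ± 0.0782, adjusted p = 9.58e-07).

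Genes that restrain the pathway (13 of 14 measured) also moved both ways, with 6 higher and 3 lower in MDA-MB-231 (median 0.12) and 7 higher and 4 lower in MCF10A (median 0.44). The difference was called higher for 4 and lower for 6. The shares of all genes were 25.5% higher and 25.4% lower in MDA-MB-231 and 29.0% and 25.2% in MCF10A. They were 22.3% higher and 23.6% lower for the difference. The pseudokinase TRIB3, known to bind AKT, rose most in MDA-MB-231 (1.9 ± 0.0429, adjusted p = 5.38e-15) and the receptor-binding protein GRB14 fell most (-1.22 ± 0.065, adjusted p = 7.92e-11). In MCF10A the lipid phosphatase INPP5D rose most (2.1 ± 0.0733, adjusted p = 2.74e-13, with its other probe sets at 0.64 and 1.25) and SOCS3, an inhibitor of cytokine and insulin receptor signalling, fell most (-1.53 ± 0.0661, adjusted p = 4.18e-12), with its other probe sets between -0.22 and 0.09.

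Among other FOXO factors and proteins that regulate FOXO (18 of 18 measured), 7 rose and 4 fell in MDA-MB-231 (median 0.11) and 7 rose and 6 fell in MCF10A (median 0.01). The difference was called higher for 6 and lower for 3. Among all genes 25.5% rose and 25.4% fell in MDA-MB-231, and 29.0% rose and 25.2% fell in MCF10A. The difference was higher for 22.3% of them and lower for 23.6%. SKP2, a ubiquitin ligase component that targets FOXO1 for degradation, had the largest fall in both lines, -2.27 ± 0.04 in MDA-MB-231 (adjusted p = 5.31e-16) and -2.32 ± 0.04 in MCF10A (adjusted p = 6.1e-17). The deacetylase SIRT1 had the largest rise in MDA-MB-231 (0.98 ± 0.0659, adjusted p = 1.61e-09) and the coactivator CREBBP in MCF10A (1.07 ± 0.0706, adjusted p = 8.75e-10, with its other probe sets between 0.05 and 1.12).

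**Figure D4:**
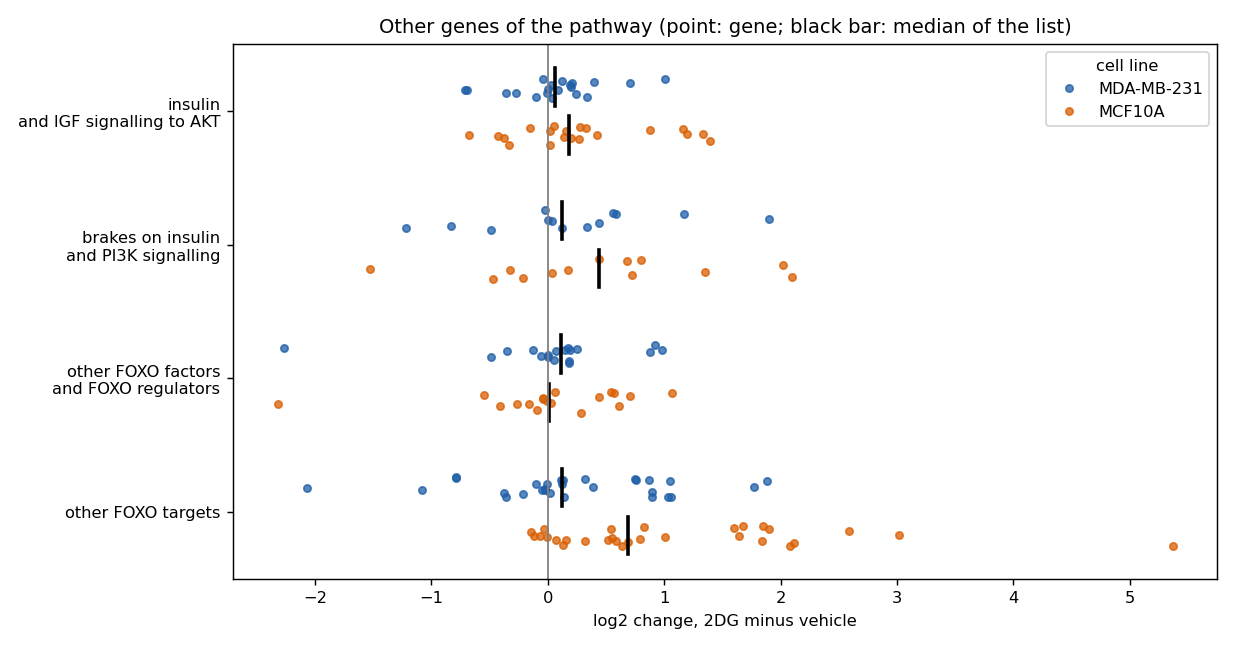
Log2 change, 2DG minus vehicle (horizontal axis), of the measured genes of the 4 lists on their brightest probe sets; points are genes, black bars list medians, MDA-MB-231 in blue and MCF10A in orange. The medians for other FOXO targets are 0.12 in MDA-MB-231 and 0.69 in MCF10A, and PDK4 in MCF10A, at 5.37, is the point farthest right.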

How the data were processed

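RNA from 16 cultures was hybridized to one-colour arrays, 1 per sample. The authors deposited log2 summaries of probe sets, made with RMA (background correction, quantile normalization and probe summary), per the submitters' processing notes. The RMA version is not given in the sources used here, nor is it stated if the 16 arrays went through it jointly. The table held 54675 probe sets, of which 41091 carried 1 gene in GEO's platform annotation.

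Log2 values of 19775 genes, each on its brightest probe set, entered a linear model in limma (3.58.1, under R 4.3.3, 4 group means, 12 residual degrees of freedom, two-sided tests, Benjamini-Hochberg adjustment over all genes, threshold 0.05, no filter). The procedure was tested on simulated data. RMA gives no depth, so the number of arrays limits the precision. Values were named for all 10 genes, for the called gene with the largest rise and fall per list and line, and for the 3 genes most correlated with FOXO1, FOXO3 and IRS2. The 10 genes and the lists were chosen with earlier results of these data known. Alternatives were other probe set choices, a filter on dim genes, a trended prior, arrays centred on their medians, only the arrays compared, an actin covariate, a replicate block and leaving out each array.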

Additional observations from a re-analysis of the deposited data

Results flagged for a closer look

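The difference between the responses of the lines, MDA-MB-231 minus MCF10A, passed the interaction test for each of the 10 genes: -2 for FBXO32, -1.68 for IRS1, -1.66 for IRS2, -1.58 for CITED2, -1.15 for FOXO1, -0.84 for INSR, -0.38 for BCL6, -0.38 for CCNG2, -0.33 for FOXO3 and -0.31 for IGF1R on the log2 scale. Line and medium, insulin included, cannot be told apart in it.

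In 2 of the 40 groups of 4 arrays 1 array stood apart from the others, both times for BCL6. Replicate B of MDA-MB-231 with 2DG read 11.71, where the others all read 11.69. Replicate D of MCF10A with vehicle read 9.1, where the others lay between 8.99 and 9. What stood out was a gap to the nearest array that took up nearly the whole range of the group, which chance gives in about 1 in 20 groups. Both gaps are small beside the changes of BCL6 with 2DG.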

How the results depend on the processing

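The calls for the 10 genes (10 in each line, 10 for the difference, 8 on vehicle) were within 1.5 times of these numbers under every alternative run. Exceptions for single genes came from the choice of probe sets. With the mean of all probe sets the change of FBXO32 in MDA-MB-231 was -0.01 instead of 0.51, and the differences of FOXO3 and IGF1R were no longer called. Under that mean the MCF10A changes were 1.38 for FOXO1, 0.5 for IGF1R, 0.98 for CCNG2, 1.25 for FBXO32 and 1.17 for CITED2, each over 1.5 times smaller, as were those in MDA-MB-231 for FOXO1 (0.65) and CCNG2 (0.8). The differences of the responses were then -0.72 for FOXO1, -0.24 for BCL6, -0.18 for CCNG2, -1.26 for FBXO32 and -0.81 for CITED2, and those on vehicle -1.14 for FOXO1, 0.3 for FBXO32 and 1.95 for CITED2. FOXO1 and IRS2 have no value without shared probe sets, where INSR in MDA-MB-231 changed by -0.75. In that setting INSR was also called on vehicle, 0.34 higher in MDA-MB-231 than in MCF10A (adjusted p = 0.000218). Without shared probe sets 7 of 21 other FOXO targets rose in MDA-MB-231 and 14 of 21 in MCF10A, against 16 and 23 of 29. FOXO regulators then rose for 4 of 12 in each line, and with the mean of all probe sets 4 of 18 rose and 7 fell in MDA-MB-231, against 7 and 4. With arrays centred, or without replicate D of MCF10A vehicle, 1 of 29 other FOXO targets fell in MCF10A. Leaving out any 1 array kept all calls for the 10 genes.

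The replicate letters were not taken to pair the samples, since the labels state no design with a block. No same-letter correlation within a line was over 0.1, which does not decide if the samples were paired. Deviations of same-letter arrays correlated by -0.0992 to 0.0194 in MDA-MB-231 and 0.0401 to 0.0877 in MCF10A. Deviations of arrays with different letters correlated by -0.0699 to 0.089 in MDA-MB-231 and -0.117 to 0.0686 in MCF10A. As a hint from the data, 7 of 8 arrays in MCF10A and 1 of 8 in MDA-MB-231 correlated best with their own letter. With the replicate block all counts for the 10 genes stood (10, 10, 10 and 8), and over all genes 9941 instead of 10057 were called in MDA-MB-231 and 10653 instead of 10721 in MCF10A. RMA compresses dim signals, so small changes of dim probe sets are understated.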
